A study of Mus musculus with 8 samples.

Results

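The dual-specificity MAP kinase phosphatases Dusp1, Dusp2, Dusp4, Dusp5, Dusp6, Dusp7, Dusp10, and Dusp16 and the Sprouty genes Spry1 and Spry2 were followed in 4 CD4 T cell types of peripheral lymph nodes (pLN). These 10 genes were taken by name from the 29924 gene names on the arrays. The brightest probe stood for a gene, and a second probe existed for Dusp7 and Dusp16.

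MAP kinases transmit signals from the T cell receptor, costimulatory receptors and cytokine receptors to the nucleus in 3 main branches, ERK, JNK, and p38. Dual-specificity phosphatases switch them off by removing phosphate from both the threonine and the tyrosine of the activation loop, and many of them are themselves transcribed in response to MAP kinase signals. Sprouty proteins act further upstream and restrain the path from receptors through Ras to ERK. In T cells, these feedback inhibitors are known to set the strength and duration of receptor signals.

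All mice were of the strain B6.Cg-Foxp3<tm1Mal>, in which Foxp3 expressing cells carry EGFP, were of mixed sex, were 8 to 14 weeks old, and had been immunized s.c. with KLH and alum, so that no cells of unimmunized mice entered the comparison. Naïve CD4 T cells (GFP-PD1-GL7-), TFH cells (GFP-PD1hiGL7+), Treg cells (GFP+PD1-GL7-), and TFR cells (GFP+PD1hi, with or without GL7) were sorted at d12 and d25 p.i. Each cell type was hybridized once per day from a pool of 8 to 15 mice, which gave 8 arrays, 2 per cell type, and no replicate of a cell type at a given day. The naïve cells were defined by the absence of these markers and the 2 arrays of a cell type differ in both day and pool. P-values therefore measured the spread of cell type differences between the pool of d12 and the pool of d25. The 4 arrays of d12 shared 1 slide. For d25, 1 slide carried the naïve CD4 T and TFH arrays and another the Treg and TFR arrays. TFH and naïve CD4 T cells, and likewise TFR and Treg cells, were thus always compared within a slide, whereas TFR versus TFH and Treg versus naïve CD4 T cells crossed slides at d25.

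Levels are normalized signals in relative units (RU) with a floor of 20. They compare 1 gene between arrays and not different genes with each other. Between 46.31% and 50.39% of the probes of an array were well above background. The sorted cells had the markers of their labels. Foxp3 was at 48622 to 49260 RU in Treg and 37266 to 37521 RU in TFR cells, against 285 to 358 RU in naïve CD4 T and 66 to 83 RU in TFH cells. Cxcr5, the receptor that leads cells into the follicle, was at 182422 to 237475 RU in TFH and 35332 to 35831 RU in TFR cells, and did not exceed 4385 RU elsewhere. The Treg marker Ikzf2 was also high in TFH cells, at 10507 to 10816 RU. Of the 6 B cell markers, 2 to 5 were well above background on an array. Their summed level was 1603 to 8573 RU on 7 arrays and 12027 RU in TFH cells of d25, while Pax5 was at 20 RU on all arrays. The 6 myeloid markers were all well above background and summed to between 19431 and 34797 RU, most of it Itgam. Of them, Cd68 moved with the follicular cells, with 5098 and 3767 RU in TFH (naïve CD4 T cells had 551 and 564 RU) and 2867 and 2334 RU in TFR (Treg cells had 368 and 394 RU), and both differences were called. Of the others, Itgam (-0.51 ± 0.12, adjusted p = 0.0208) and Csf1r (-0.38 ± 0.11, adjusted p = 0.0454) were called lower in TFH than naïve CD4 T cells. None of the others was called between TFR and Treg cells. Meanwhile, the CD8 T cell markers Cd8a and Cd8b1 summed to between 2110 and 5117 RU, lowest in the follicular cells. The part of such cells in the results was not tested. In sorted pools, fewer cells expressing a gene and less RNA per cell cannot be told apart.

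Follicular cells differed from their non-follicular counterparts in most of the family. The mRNA of Dusp1, Dusp4, and Dusp16 was higher and that of Dusp2, Dusp5, and Dusp7 lower both in TFH than naïve CD4 T cells and in TFR than in Treg cells. Spry1 and Dusp6 were higher in TFH than naïve CD4 T cells, whereas their differences between TFR and Treg cells did not pass the test. Genes passed the test, here termed called, when the p-value of a linear model (limma) with terms for cell type and day stayed below 0.05 after Benjamini-Hochberg adjustment over all 15747 genes tested. Of the 10 genes, 9 were tested, since Spry2 did not rise well above background anywhere. In TFH versus naïve CD4 T cells 5 were called higher and 3 lower, where the share of calls over all genes was 46.7%, with 21% higher and 25.7% lower. In TFR versus Treg cells 3 were higher and 3 lower, against 39.8% of all genes, 18.8% higher and 21% lower. Dusp4 passed the filter on dim probes without being measured in naïve CD4 T cells and Dusp5 without being measured in TFH cells. The counts describe the genes and do not set the family apart.

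**Figure D1:**
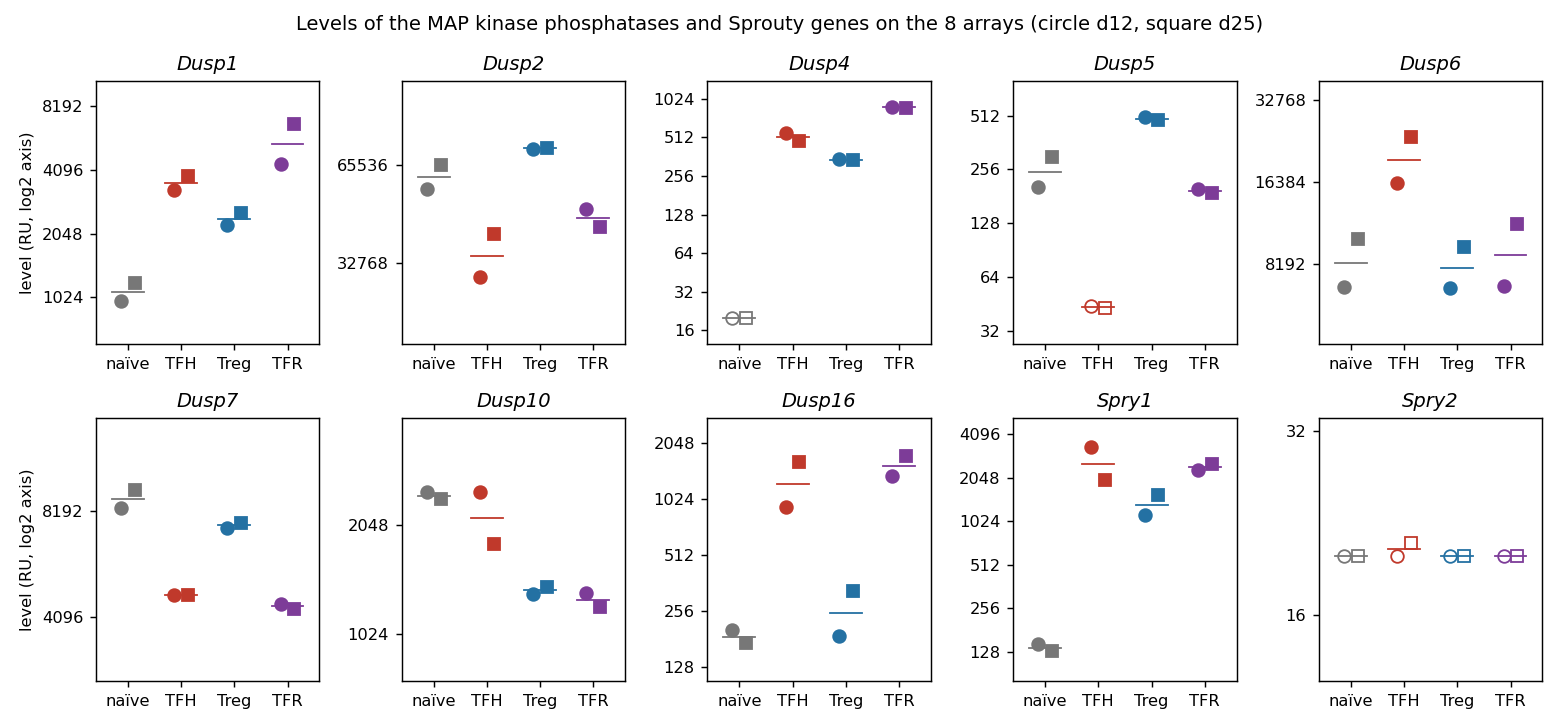
Level in RU (log2 axis, scaled for each gene) of the 10 genes in TFH, TFR, Treg, and naïve CD4 T cells. Each point is 1 array, circles d12 and squares d25, horizontal lines are the geometric mean of the 2 arrays, and open symbols mark arrays on which the probe was not well above background; Dusp4 was at the floor of 20 RU in naïve CD4 T cells and Dusp5 was at 43 to 44 RU in TFH cells.

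Dusp1 encodes MKP-1, a nuclear phosphatase that acts mainly on p38 and JNK and is known as an immediate early gene. Its probe is listed at chr17:26642526-26642536 (build NCBI37, minus strand). This span is shorter than that of the other probes, so the listed position may cover only part of the probe. Dusp1 was at 986 RU in naïve CD4 T cells of d12 and 1203 RU at d25, at 3282 and 3832 RU in TFH cells, at 2239 and 2557 RU in Treg cells, and at 4385 and 6718 RU in TFR cells. The 4 cell types did not overlap and ranked TFR, TFH, Treg, and naïve CD4 T cells from high to low. The log2 difference was 1.70 ± 0.13 (SE) between TFH and naïve CD4 T cells (3.26-fold, adjusted p = 0.000867) and 1.18 ± 0.13 between TFR and Treg cells (2.27-fold, adjusted p = 0.00381). Treg cells exceeded naïve CD4 T cells by 1.14 ± 0.13 (adjusted p = 0.0111), with 1.18 at d12 and 1.09 at d25. This call was lost without either naïve array (adjusted p = 0.0753 and 0.0763), without either Treg array (0.0925 and 0.0681), with slide in place of day (0.0761), and without a filter on dim probes (0.0659). The difference of 0.61 ± 0.13 between TFR and TFH cells (adjusted p = 0.0342), which was 0.42 at d12 and 0.81 at d25, was lost under 10 of 18 alternatives. Among these were the omission of either naïve, TFH or Treg array and of the d25 TFR array, with adjusted p between 0.0658 and 0.132.

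Dusp2 encodes PAC-1, a nuclear phosphatase first known from activated T cells (probe at chr2:127163930-127163989). TFH cells held 29668 RU of Dusp2 at d12 and 40220 RU at d25, and TFR cells 47960 and 42273 RU, compared with 55239 and 65351 RU for naïve CD4 T cells and 73256 and 73635 RU for Treg cells. Both follicular cell types thus lay below both others. The log2 difference was -0.80 ± 0.17 for TFH versus naïve CD4 T cells (adjusted p = 0.0168) and -0.71 ± 0.17 for TFR versus Treg cells (adjusted p = 0.0287). The former was lost without either naïve array (adjusted p = 0.0663 and 0.0942) or the d12 TFH array (0.0645). The latter was lost without either naïve (0.0535), Treg (0.151 and 0.0981) or TFR array (0.0529 and 0.147). Without a filter on dim probes both were lost (0.078 and 0.113). TFR and TFH cells differed by 0.38 ± 0.17 (adjusted p = 0.172) and Treg and naïve CD4 T cells by 0.29 ± 0.17 (adjusted p = 0.345), neither of which passed the test.

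Dusp4 encodes MKP-2, another nuclear phosphatase, which acts on ERK and JNK (probe at chr8:35882045-35882104). In naïve CD4 T cells it was at the floor of 20 RU at both days and not well above background. It was at 555 and 482 RU in TFH cells, at 346 and 343 RU in Treg cells, and at 882 and 876 RU in TFR cells. Dusp4 was thus detected in the 3 other cell types and ranked TFR, TFH, and Treg cells without overlap. Against naïve CD4 T cells only lower bounds can be given, taking for the missing level the lowest signal that was well above background on the same naïve array. Under the main processing, Dusp4 was at least 8.86-fold higher in TFH cells (adjusted p = 7.91e-05) and at least 5.91-fold higher in Treg cells (adjusted p = 0.000562). With normexp background correction, which adds an offset, the estimates were 2.08 and 1.65 on the log2 scale, and both were called. They lie below these bounds, which thus hold only for the main processing. The floor also sets the spread of the naïve arrays, so that the spread behind these p-values was not measured there. The fit takes 1 spread per gene over all arrays, so the naïve arrays at the floor also enter the SE of the comparisons that follow. Between cell types that express the gene, TFR cells exceeded Treg cells by 1.35 ± 0.09 (2.55-fold, adjusted p = 0.00127), with the same value of 1.35 at d12 and d25. TFR cells also exceeded TFH cells by 0.76 ± 0.09 (1.70-fold, adjusted p = 0.00767), a call that was lost without either TFR array (adjusted p = 0.065 and 0.0679) and with slide in place of day (0.0528).

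Dusp5 encodes a nuclear phosphatase specific for ERK, and its transcript is known to be induced by ERK (probe at chr19:53615682-53615741). Treg cells had the most, 500 RU at d12 and 481 RU at d25, while TFR cells had 198 and 189 RU and naïve CD4 T cells 204 and 300 RU. In TFH cells it was at 44 and 43 RU and not well above background. In contrast to Dusp1 and Dusp4, Dusp5 was lower in follicular cells, being highest in Treg and lowest in TFH cells. Under the main processing it was 5.72-fold lower in TFH than naïve CD4 T cells (adjusted p = 0.000748). It was 4.47-fold higher in TFR than in TFH cells (adjusted p = 0.00288), with log2 values of 2.18 at d12 and 2.14 at d25. The TFH signal was not well above background, so these folds hold only for this processing. It exceeded the lowest signal that was well above background on the TFH arrays (39 and 30 RU). The folds are therefore the estimates themselves and not bounds. With normexp background correction the differences were -1.02 and 0.77, both called. TFR cells fell below Treg cells, with a log2 difference of -1.34 ± 0.18 (2.54-fold, adjusted p = 0.00631) and nearly the same value at d12 (-1.34) and d25 (-1.35). This call was lost without the d12 Treg array (adjusted p = 0.0512) and without the d25 TFR array (0.056). Treg cells exceeded naïve CD4 T cells by 0.99 ± 0.18 (adjusted p = 0.0381), with 1.29 at d12 and 0.68 at d25. It was lost without each of 7 arrays, all but the d25 naïve one (adjusted p between 0.0617 and 0.2), with slide in place of day (0.0936), and without a filter on dim probes (0.16).

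Dusp1 and Dusp5 are shown with the DNA before their transcription start because their follicular differences had opposite directions and they were the only genes of the family in which a searched motif was found. The 250 bases upstream of the start were taken from RefSeq (build GRCm38.p6), which held an entry for 9 of the 10 genes. Dusp4 had none. Searched on both strands were the CRE bound by CREB (TGACGTCA), the CArG box bound by SRF, the AP-1 site (TGANTCA), and an ETS site (CCGGAAG), motifs of factors that are known targets of MAP kinases. The CArG box was searched with fixed outer CC and GG, a fixed central AT and any base between them. This form is looser than the textbook motif beside the center and stricter in the center, so that it can miss textbook sites. The motifs did not overlap each other in these sequences. Capitals mark the matches in the sequences of Dusp1 (chr17:26508473-26508722, minus strand) and Dusp5 (chr19:53528895-53529144, plus strand), written 5′ to 3′ toward the start.
Dusp1: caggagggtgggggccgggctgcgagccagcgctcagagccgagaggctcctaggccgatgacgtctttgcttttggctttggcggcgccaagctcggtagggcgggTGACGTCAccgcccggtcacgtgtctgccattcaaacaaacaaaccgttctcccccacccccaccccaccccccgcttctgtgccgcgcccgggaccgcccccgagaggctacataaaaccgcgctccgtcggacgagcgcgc
Dusp5: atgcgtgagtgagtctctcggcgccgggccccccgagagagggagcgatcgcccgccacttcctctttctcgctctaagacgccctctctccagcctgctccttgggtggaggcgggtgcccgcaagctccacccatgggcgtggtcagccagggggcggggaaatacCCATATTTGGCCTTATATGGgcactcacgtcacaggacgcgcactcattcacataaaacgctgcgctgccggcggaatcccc
The CRE of Dusp1 lies 143 to 136 bases before the start, and 1.55% of all 32851 promoters of this length hold the same letters. Dusp5 holds 2 CArG matches side by side, at 82 to 73 and at 72 to 63 bases before the start, and 3.87% of all promoters hold at least 1. The AP-1 letters (6.75% of all promoters) and the ETS letters (6.91%) occurred in none of the 9 sequences, which says only that they are not in this window. No binding of a factor was measured here.

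Dusp6 and Dusp7 encode cytoplasmic phosphatases specific for ERK, and Dusp6 transcript is commonly used as a readout of ERK activity. Dusp6 (probe at chr10:98729985-98730044) reached 16266 RU at d12 and 23942 RU at d25 in TFH cells, against 6835 and 11533 RU in TFR, 6685 and 9448 RU in Treg, and 6769 and 10117 RU in naïve CD4 T cells. TFH cells stood above the other cell types, which overlapped. The log2 difference was 1.25 ± 0.10 between TFH and naïve CD4 T cells (2.38-fold, adjusted p = 0.000885) and 0.16 ± 0.10 between TFR and Treg cells (adjusted p = 0.25). TFR cells were below TFH cells, by -1.15 ± 0.10 on the log2 scale (adjusted p = 0.00289), with -1.25 at d12 and -1.05 at d25. Without the day term this call was lost (adjusted p = 0.0938).

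Dusp7 (probe at chr9:106277985-106278044) had a level of 8325 and 9409 RU in naïve CD4 T cells, of 4719 and 4734 RU in TFH cells, of 7329 and 7572 RU in Treg cells, and of 4472 and 4317 RU in TFR cells. Both follicular cell types were thus below both others on every array. The difference was -0.90 ± 0.09 for TFH versus naïve CD4 T cells (1.87-fold, adjusted p = 0.00197) and -0.76 ± 0.09 for TFR versus Treg cells (1.70-fold, adjusted p = 0.0048). A second probe, which overlaps the first one and is dimmer, disagreed. It gave 2409 and 1044 RU for TFH, 2132 and 1323 RU for TFR, 2493 and 1982 RU for Treg, and 2371 and 1857 RU for naïve CD4 T cells. With this probe both differences were -0.40 ± 0.24 and were not called (adjusted p = 0.229 and 0.239).

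Dusp10 and Dusp16 encode MKP-5 and MKP-7, which act on JNK and p38 rather than on ERK. Dusp10 (probe at chr1:185898608-185898667) was the only tested gene that separated Foxp3+ from Foxp3- cells without a called follicular difference. TFH cells had 2531 and 1818 RU at d12 and d25 and naïve CD4 T cells 2521 and 2422 RU, against 1329 and 1219 RU in TFR and 1319 and 1387 RU in Treg cells. Every Foxp3- array was above every Foxp3+ array. The log2 difference was -0.87 ± 0.15 for Treg versus naïve CD4 T cells (adjusted p = 0.0314), with -0.93 at d12 and -0.80 at d25. It was -0.75 ± 0.15 for TFR versus TFH cells (adjusted p = 0.0284), with -0.93 at d12 and -0.58 at d25. Both calls were fragile. With slide in place of day they were lost at adjusted p = 0.093 and 0.0713, and without a filter on dim probes at 0.132 and 0.112. The former was also lost without either naïve, Treg or TFR array (adjusted p between 0.0914 and 0.171), and the latter without either naïve array, either TFR array or the d12 TFH array (between 0.053 and 0.164). The follicular differences were -0.20 ± 0.15 in Foxp3- and -0.09 ± 0.15 in Foxp3+ cells (adjusted p = 0.317 and 0.679).

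Dusp16 (probe at chr6:134665783-134665842) was the member with nearly equal rises in both follicular cell types. From d12 to d25 it went from 929 to 1634 RU in TFH, 1370 to 1758 RU in TFR, 188 to 331 RU in Treg, and 202 to 173 RU in naïve CD4 T cells. All follicular arrays were above all others, while TFH overlapped with TFR cells and naïve CD4 T with Treg cells. The rise was 2.72 ± 0.28 in TFH over naïve CD4 T cells (6.59-fold, adjusted p = 0.00196) and 2.64 ± 0.28 in TFR over Treg cells (6.22-fold, adjusted p = 0.0034). The former was 2.20 at d12 and 3.24 at d25, the latter 2.86 and 2.41. Both were called under all 17 alternatives that tested the gene, with values from 2.04 to 3.16 and from 2.06 to 2.89, the lowest with normexp background correction. The second probe of Dusp16 was at 20 to 23 RU and not well above background on any array, so it neither adds to nor checks these values.

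Spry1 and Spry2 encode Sprouty proteins, membrane-associated inhibitors of signaling to Ras and ERK. Spry1 (probe at chr3:37543403-37543462) was lowest in naïve CD4 T cells, with 145 RU at d12 and 129 RU at d25. TFH cells had 3312 and 1974 RU, TFR cells 2293 and 2521 RU, and Treg cells 1135 and 1550 RU. Naïve CD4 T cells stood apart from all other cells, and the values of TFR cells lay between those of TFH cells. Spry1 was higher in TFH than naïve CD4 T cells by 4.23 ± 0.29 on the log2 scale (18.7-fold, adjusted p = 0.000644). It was higher in Treg than in naïve CD4 T cells by 3.28 ± 0.29 (9.71-fold, adjusted p = 0.00509), with 2.97 at d12 and 3.59 at d25. With normexp background correction these were 3.16 and 2.29, both called, whereas without a filter on dim probes the second was lost (adjusted p = 0.0564). TFR cells exceeded Treg cells by 0.86 ± 0.29, which was not called (adjusted p = 0.0722). It was called under 5 alternatives, with slide in place of day (adjusted p = 0.0391), with normexp (0.04), with an intensity trend (0.0462), and without either TFH array (0.0288). TFR and TFH cells differed by -0.09 ± 0.29 (adjusted p = 0.856). Spry2 (probe at chr14:106291845-106291904) was at 20 to 21 RU on every array and not well above background, so that no difference could be measured.

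**Figure D2:**
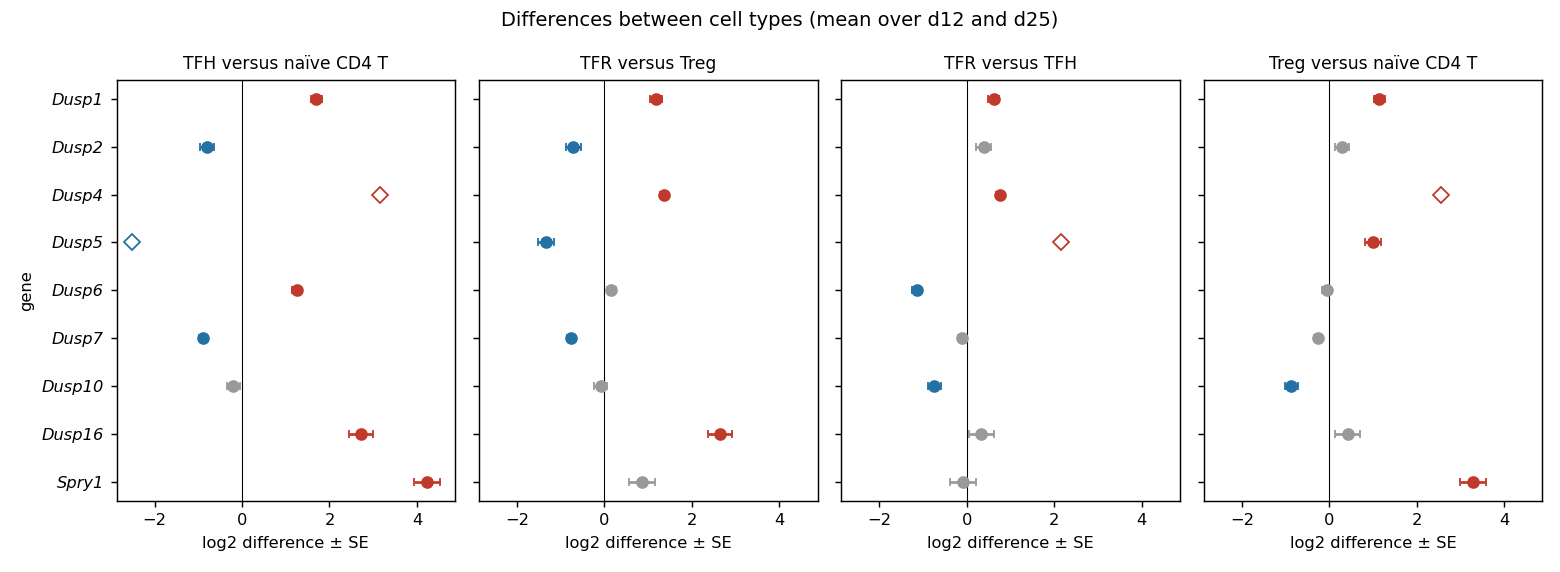
Log2 difference (± SE) of the 9 tested genes in TFH versus naïve CD4 T, TFR versus Treg, TFR versus TFH, and Treg versus naïve CD4 T cells, each over 2 arrays per cell type. Red marks genes called higher, blue called lower, and grey not called. Open diamonds without error bar are bounds, since Dusp4 was not well above background in naïve CD4 T cells nor Dusp5 in TFH cells. For Dusp5 the bound equals the estimate. Farthest to the right in TFH versus naïve CD4 T cells are Spry1 at 4.23 and Dusp4 at a bound of at least 8.86-fold under the main processing.

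TFR and TFH cells, both PD1hi, and Treg and naïve CD4 T cells, both PD1-GL7-, were compared as pairs of Foxp3+ and Foxp3- cells. TFH cells were sorted as GL7+ and TFR cells with or without GL7, so TFR versus TFH also differs in that gate. The location of the cells was not measured on these arrays. In TFR versus TFH cells, Dusp1, Dusp4, and Dusp5 were called higher and Dusp6 and Dusp10 lower, 5 of 9 tested, where 22.2% of all genes were called, 11.7% higher and 10.5% lower. In Treg versus naïve CD4 T cells, Dusp1, Dusp4, Dusp5, and Spry1 were called higher and Dusp10 lower, again 5 of 9, where 9.89% of all genes were called, 5.91% higher and 3.99% lower. With slide in place of day, 2 genes were called in each of these comparisons. Dusp5 and Dusp6 were the nuclear and the cytoplasmic phosphatase of ERK with opposite differences between TFR and TFH cells, Dusp5 higher and Dusp6 lower in TFR cells.

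Whether the follicular change differed between Foxp3+ and Foxp3- cells was tested as 1 contrast, namely TFR over Treg minus TFH over naïve CD4 T cells. It was called for 3 of the 9 genes, all with a smaller change in Foxp3+ cells, where 8.52% of all genes were called, 4.05% with a higher and 4.47% with a lower value. For Spry1 the changes differed by -3.37 ± 0.41 on the log2 scale (adjusted p = 0.0159), with -3.5 at d12 and -3.24 at d25. This call was lost without either naïve (adjusted p = 0.0682 and 0.0721) or TFR array (0.0976 and 0.0787), without the d25 Treg array (0.0593), and without a filter on dim probes (0.101). For Dusp6 they differed by -1.09 ± 0.14 (adjusted p = 0.017), with -1.23 at d12 and -0.95 at d25. It was lost without either naïve, Treg or TFR array (adjusted p between 0.0576 and 0.0891), with slide in place of day (0.0509), without a filter on dim probes (0.0602), and without a day term (0.354). For Dusp4 the adjusted p was 0.00269, but both naïve arrays were at the floor, so that neither the size of the difference nor its spread was measured. The differences were -0.08 ± 0.40 for Dusp16, 0.09 ± 0.24 for Dusp2, 0.14 ± 0.13 for Dusp7, 0.12 ± 0.21 for Dusp10, and -0.52 ± 0.19 for Dusp1, with adjusted p between 0.173 and 0.924. Dusp5 was not called either (adjusted p = 0.0631), except without the d12 naïve array (0.0393).

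**Figure D3:**
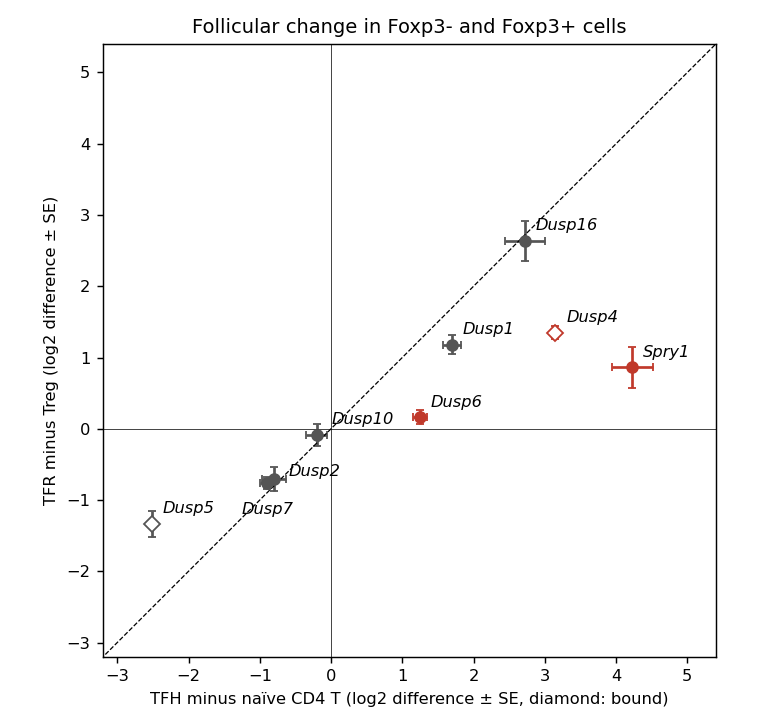
Log2 difference (± SE) between TFH and naïve CD4 T cells (x axis) and between TFR and Treg cells (y axis) for the 9 tested genes, with the dashed line where both are equal. Red marks the 3 genes for which the difference of the changes was called, Dusp4, Dusp6, and Spry1, which lie below the line. Diamonds mark Dusp4 and Dusp5, whose x value is a bound, which for Dusp5 equals the estimate.

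Between d12 and d25 none of the 9 genes was called by limma, 2 of them having an unadjusted p below 0.05, while the share of calls over all genes was 0.0699%, with 0.0191% higher and 0.0508% lower at d25. The day cannot be told apart from the slide. Dusp6 was nearest, being higher at d25 by 0.60 ± 0.07 over the 4 cell types (unadjusted p = 0.000386, adjusted p = 0.0655). Its d25 array was above its d12 array by 0.58 in naïve CD4 T, 0.56 in TFH, 0.50 in Treg, and 0.75 in TFR cells. It was called with normexp (adjusted p = 0.0317), among genes well above background on all arrays (0.0346), and with an intensity trend (0.0249). Dusp1 was higher at d25 in all 4 cell types, by 0.33 ± 0.09 on average (adjusted p = 0.115).

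The components of the Ras-ERK cascade reported here, 8 in number, had calls in both directions. All 8 were tested, and in TFH versus naïve CD4 T cells 2 were called higher and 3 lower, with a median log2 difference of -0.16 against -0.07 over all genes tested, of which 46.7% were called. The higher ones were the scaffold Ksr1 (0.55 ± 0.08, adjusted p = 0.00567) and the small GTPase Hras (0.39 ± 0.11, adjusted p = 0.0342). The GTPase Nras (-0.94 ± 0.16, adjusted p = 0.00817) and the kinases Braf (-0.64 ± 0.16, adjusted p = 0.0289) and Araf (-0.39 ± 0.09, adjusted p = 0.0254) were lower. In TFR versus Treg cells none was called higher and 2 were lower, where 39.8% of all genes were called, namely Nras (-0.73 ± 0.16, adjusted p = 0.0215) and Braf (-0.60 ± 0.16, adjusted p = 0.0397). Ksr1 was at 308 and 291 RU in TFH, 185 and 172 RU in TFR, 220 and 199 RU in Treg, and 208 and 201 RU in naïve CD4 T cells, so that TFH cells stood above all others. Its follicular change differed between Foxp3+ and Foxp3- cells (-0.78 ± 0.11, adjusted p = 0.0236). In TFR versus TFH cells 2 of the 8 were lower, Ksr1 (-0.75 ± 0.08, adjusted p = 0.00538) and Mapk3, which is ERK1 (-0.36 ± 0.08, adjusted p = 0.0344), and none was higher. In Treg versus naïve CD4 T cells none of the 8 was called by limma, and 1 had an unadjusted p below 0.05.

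Calls among transcripts known to depend on ERK went both ways between follicular and other cells. Between TFR and TFH cells only higher ones were called, while the estimates went both ways. Of 17 on the list, 15 were tested. In TFH versus naïve CD4 T cells 5 were called higher and 4 lower, where 46.7% of all genes were called. Egr2, a transcription factor induced by T cell receptor signals, reached 17493 and 19987 RU in TFH and 12627 and 17795 RU in TFR, against 5036 and 7234 RU in Treg and 2801 and 3815 RU in naïve CD4 T cells. It was higher in TFH than naïve CD4 T cells (2.52 ± 0.11, adjusted p = 0.000233) and in TFR than in Treg cells (1.31 ± 0.11, adjusted p = 0.0021). Etv5, an ETS factor, was higher by 1.93 ± 0.24 and 0.90 ± 0.24 (adjusted p = 0.00347 and 0.04). Myc, which drives growth, was lower by -2.69 ± 0.20 and -1.29 ± 0.20 (adjusted p = 0.00077 and 0.00869), as were Jun by -1.62 ± 0.30 and -2.22 ± 0.30 (adjusted p = 0.011 and 0.00587) and Ier2 by -1.67 ± 0.11 and -0.98 ± 0.11 (adjusted p = 0.000525 and 0.00358). Against 39.8% of all genes called, 4 of these transcripts were called higher and 3 lower in TFR versus Treg cells. Among these, Ier3 was at least 2.43-fold higher in TFR cells (adjusted p = 0.00362), and the ETS factor Etv4 was higher by 1.61 ± 0.28 (adjusted p = 0.0122). Of all genes, 22.2% were called in TFR versus TFH cells. Of these transcripts, 5 were called higher and none lower, with a median log2 difference of 0.65 against -0.02 over all genes tested. They were Myc (2.02 ± 0.20, adjusted p = 0.00428), Ier3 (1.13 ± 0.26, adjusted p = 0.0391), Fosl2 (1.02 ± 0.20, adjusted p = 0.0255), Junb (0.68 ± 0.12, adjusted p = 0.0213), and Ier2 (0.65 ± 0.11, adjusted p = 0.0166), whereas Dusp6 was lower in TFR cells. Egr1 (-0.38 ± 0.10, adjusted p = 0.0527), Egr2 (-0.32 ± 0.11, adjusted p = 0.113), Fos (-0.62 ± 0.55), Fosb (-0.54 ± 0.48), and Jun (-0.34 ± 0.30) had lower estimates in TFR cells without being called. The genes Egr1, Fos, Fosb, Jun, Junb, and Ier2 also belong to a list of transcripts that respond to tissue handling and heat shock, of which 15 of 18 were tested. Egr1 was higher in TFH than naïve CD4 T cells (0.93 ± 0.10, adjusted p = 0.00196), as was Dusp1. On that list 2 were called higher and 3 lower in TFH relative to naïve CD4 T cells, against 46.7% of all genes called. In TFR versus Treg cells 1 was higher and 3 were lower, against 39.8% of all genes. The summed level of that list on an array was between 582061 and 681916 RU. Most of it came from Hspa8, Hsp90ab1, and Hspe1, so the sum does not show changes of the dimmer genes. In TFH cells of d12, Fos was at 747 RU and Fosb at 1201 RU. On the other arrays they were at 123 to 389 RU and 219 to 516 RU. Jun and Ier2, by contrast, were lower in TFH than naïve CD4 T cells, as given above. Dusp1 is itself known to respond to handling, and the part of handling in its differences was not tested.

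**Figure D4:**
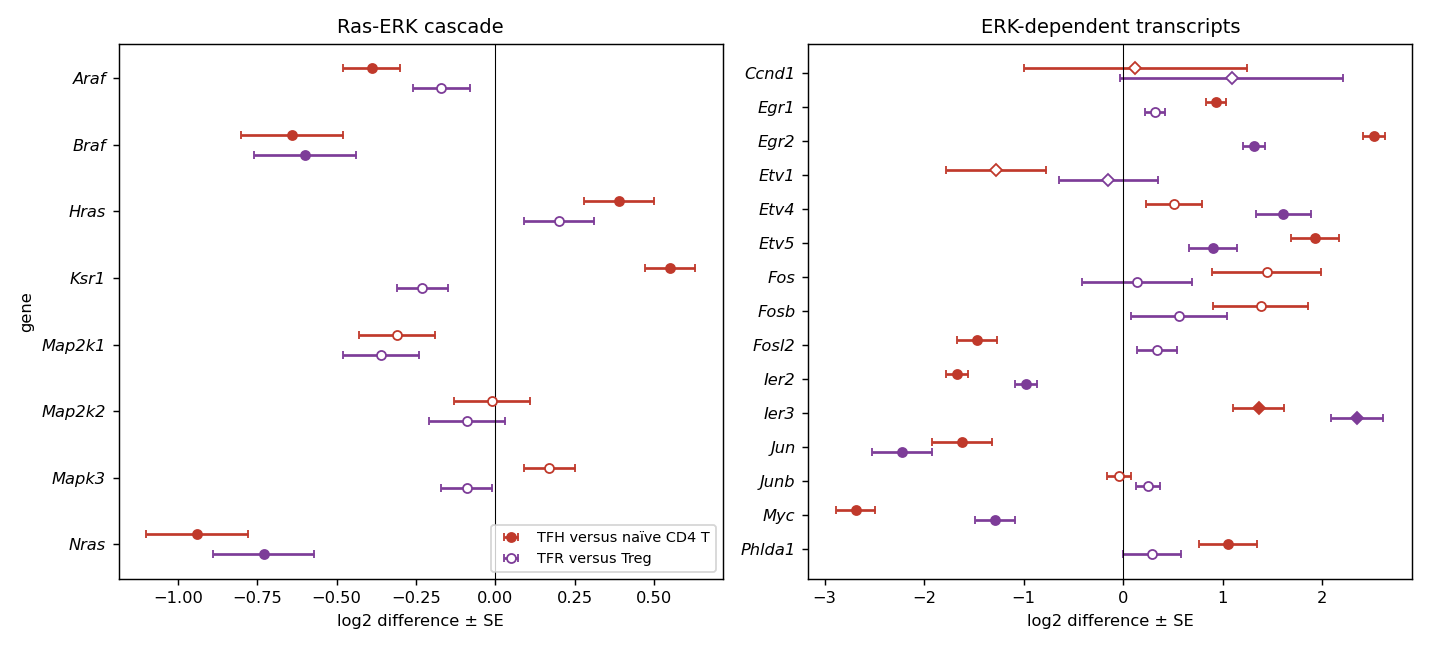
Log2 difference (± SE) of components of the Ras-ERK cascade (left) and of ERK-dependent transcripts (right) in TFH versus naïve CD4 T cells (red) and in TFR versus Treg cells (purple), each over 2 arrays per cell type. Filled symbols were called, open symbols were not, and diamonds mark dim genes (Ccnd1, Etv1, Ier3) not well above background on at least 1 side; Nras was lower in both comparisons (-0.94 and -0.73), and Egr2 was higher in both (2.52 and 1.31).

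Among the other dual-specificity phosphatases, 14 of 21 were tested. In TFH versus naïve CD4 T cells 3 were called higher and 3 lower, against 46.7% of all genes called. In TFR versus Treg cells 4 were higher and 4 lower, against 39.8% of all genes. Dusp14, which is known to dampen T cell receptor signaling, reached 2853 and 3615 RU in TFR and 1201 and 1144 RU in TFH, against 375 and 437 RU in Treg and 310 and 348 RU in naïve CD4 T cells. It was higher by 1.84 ± 0.12 in TFH than naïve CD4 T cells (adjusted p = 0.000595) and by 2.99 ± 0.12 in TFR than in Treg cells (adjusted p = 0.000469). In contrast to Spry1 and Dusp6, the change was larger in Foxp3+ cells (difference 1.15 ± 0.17, adjusted p = 0.0252). Ssh3, a phosphatase of cofilin, also changed more in Foxp3+ cells, by 1.08 ± 0.16 and 2.74 ± 0.16 (difference 1.67 ± 0.23, adjusted p = 0.0209). Dusp14 was higher in TFR than TFH cells (1.45 ± 0.12, adjusted p = 0.0028), whereas Ssh3 was not called there (0.19 ± 0.16, adjusted p = 0.445). Ssh3 was lower in Treg than naïve CD4 T cells (-1.47 ± 0.16, adjusted p = 0.00969). Of the 5 other Sprouty and Spred genes, only Spred1 and Spred2 were tested. Spred1 was higher in TFH than naïve CD4 T cells (0.97 ± 0.26, adjusted p = 0.0344), and Spred2 was not called in any comparison.

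Genes with the most similar pattern over the 8 arrays were looked up for the 5 members whose cell type means spanned at least 2 on the log2 scale. Correlations are descriptions over 8 arrays of 4 cell types, among 1088 to 1089 genes well above background on all arrays and with the same minimum span. For Dusp4 the 2 naïve arrays and for Dusp5 the 2 TFH arrays entered with values not well above background, which set much of their span, so their rankings are rough. Dusp1 was most like Cldn12 (Pearson r = 0.994), Maged2 (0.99), and Itgb1 (0.989). Dusp4 was most like Il12rb1 (0.993), Slc12a8 (0.989), and Spry1 (0.983). For Dusp5 the closest were Glipr2 (0.983), Myc (0.983), and Ppp1r3f (0.982), for Dusp16 they were Ggt7 (0.991), Ifng (0.99), and Arl6 (0.987), and for Spry1 they were Bmp7 (0.982), Rnf216 (0.979), and Trib1 (0.971). As an example of a profile selected by its correlation, Myc had 8505 and 9137 RU in naïve CD4 T and 1662 and 1117 RU in TFH cells. It had 12885 and 14170 RU in Treg and 5987 and 5072 RU in TFR cells.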

How the data were processed

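RNA of sorted CD4 T cells was hybridized by the authors to 8 one-color Agilent arrays, 25 ng of RNA each. The paper's statistics section gives other numbers of arrays and mice than the labels, which were followed here. Signals were extracted with Agilent Feature Extraction 10.7.3.1, per the submitters' processing notes. The authors deposited intensities of all spots, and normalized ones in a table. Their steps were repeated here from the spots (background-corrected signal, 4 spots per probe): exclusion of flagged spots, of spots outside 1.42 times the interquartile range and of spots with a pixel coefficient of variation above 0.5, geometric mean, quantile normalization, 75th percentile set to 1500, and a floor of 20. These steps kept 86.45% to 89.18% of the spots, and the values correlated with the authors' table at a Pearson r of 0.9994 on each array. Quantile normalization gives all arrays the same distribution, so a global change between cell types could not be seen. The number of arrays limits the precision. The raw 75th percentile was between 483 and 878.3.

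Of several probes of a gene, that with the highest mean log2 value was used. It was tested if that probe was well above background (more than 50% of the retained spots flagged so) on the 2 arrays of 1 or more cell types and had a value on all 8 arrays. Log2 values were fitted with limma 3.58.1 in R 4.3.3 (lmFit, eBayes; 3 residual and 1.91 prior degrees of freedom) with additive terms for cell type and day, after the procedure had been tested on simulated data. The paper's ANOVA needs replicates per cell type and day. SEs are those of the fit. Where a side was not well above background, a bound replaced the fold: a dim array's level was raised to the lowest signal that was well above background there (30 to 68 RU), unless already higher. For Dusp5 the TFH arrays were already higher, so its bound equals its fold. Probe positions come from the files and refer to build NCBI37, for which no annotation was used here. The genes and lists were chosen with earlier results of these data known. Some genes of these lists are not reported here, and the count for the Ras-ERK cascade leaves them out. Outside the 10 genes, genes were named per list and comparison from the called ones with the largest differences, or where needed to show a count, besides the 3 closest profiles. Day served as the replicate block, since arrays of a day share a label. The 18 alternatives were 75th percentile scaling alone, normexp, the authors' table, no spot exclusion, no or a stricter filter on dim probes, the second probe, no day term, slide as block, an intensity trend, and leaving out each array. Genes with 1 probe kept it under the second-probe setting, so their estimates could not change there. Among the members that setting checks only Dusp7, since the second probe of Dusp16 was too dim to be tested.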

Additional observations from a re-analysis of the deposited data

Results flagged for a closer look

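For 3 of the 9 genes the follicular change differed between Foxp3- and Foxp3+ cells by a direct test of the difference (limma, adjusted over all genes). For Spry1 the change from Treg to TFR cells was smaller than that from naïve CD4 T to TFH cells, with a difference of -3.37 on the log2 scale. For Dusp6 the difference was -1.09. For Dusp4 the adjusted p was 0.00269, but naïve CD4 T cells were at the floor on both arrays, so that neither size nor spread was measured there. The call for Spry1 was lost without the d12 or d25 naïve array (adjusted p = 0.0682 and 0.0721), the d12 or d25 TFR array (0.0976 and 0.0787), and the d25 Treg array (0.0593), and that for Dusp6 without any 1 of the naïve, Treg or TFR arrays (between 0.0576 and 0.0891). Without a filter on dim probes both were lost (0.101 and 0.0602).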

How the results depend on the processing

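Over 18 alternatives, 945 values of the 9 genes were recomputed. Of these, 861 kept their call or lack of one, 75 lost the call, and 9 gained it. None of the called ones changed sign. Uncalled values could change sign, such as that of Spry1 in TFR versus TFH cells (from -0.53 to 0.35). The authors' table, 75th percentile scaling, and the omission of spot exclusion changed no call of a member. In TFR versus TFH cells, where 5 genes were called, 3 were called without a filter on dim probes, 3 among genes well above background on all arrays (7 members tested), and 2 with slide in place of day. Leaving out each array gave 2 to 4. In Treg versus naïve CD4 T cells, also with 5, these counts were 1, 3, and 2, and 2 to 4. For the difference of the follicular changes, with 3, no filter gave 1 and leaving out each array 1 to 3. Between d12 and d25, with 0, normexp, the stricter filter, and the intensity trend each gave 1, Dusp6. Leaving out each array gave 7 to 8 calls in TFH versus naïve CD4 T and 4 to 7 in TFR versus Treg cells, where the full data gave 8 and 6. Day was the replicate block of the model. Without this replicate block 3 genes were called in TFR versus TFH cells instead of 5, Dusp1 and Dusp6 being lost, and no other call changed but that of Dusp6 for the difference of the changes.

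Over all genes, the number called moved by more than 1.5 times in each comparison. In TFH versus naïve CD4 T cells it fell from 7347 to 4323 and 4660 without the d12 or d25 naïve array. In TFR versus Treg cells it fell from 6261 to between 2524 and 2840 without either array of these cells, and to 3865 without a filter. In TFR versus TFH cells it fell from 3493 to 947 and 1103 without the d12 or d25 TFR array, to 2104 without the d25 TFH array, to 1645 without a filter, to 2215 without the day term, and to 1368 with slide as block. In Treg versus naïve CD4 T cells it fell from 1558 to between 423 and 818 without any 1 of the naïve, Treg or TFR arrays, and to 687, 1004, and 531 under the same 3 settings. For the difference of the changes it fell from 1341 to between 303 and 453 without any 1 of the naïve, Treg or TFR arrays, and to 421, 820, and 703. For d25 versus d12, 11 became 0 without any 1 array, without a filter, with the second probe or with slide as block, 6 without spot exclusion, 28 with 75th percentile scaling, 903 with normexp, 856 with the stricter filter, and 1141 with an intensity trend. The share of calls that were higher at d25 was 27.3% and, with normexp, 61%. With 2 arrays per cell type, dim genes have only bounds (Dusp4 in naïve CD4 T cells), estimates that depend on the processing (Dusp5 in TFH cells) or no value (Spry2).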

Other observations

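Components of the JNK and p38 cascades, the branches on which Dusp10 and Dusp16 act, were looked up as well. The list holds upstream kinases besides the MAP kinases, and whether a listed kinase is a substrate of these phosphatases was not tested. Of 16 genes, 14 were tested, of which 5 were called higher and 3 lower in TFH relative to naïve CD4 T cells, and 2 higher and 2 lower in TFR versus Treg cells. Over all genes, 46.7% and 39.8% were called in these comparisons. Mapk12, a p38 kinase, reached 558 and 1111 RU in TFH against 149 and 84 RU in naïve CD4 T cells (2.82 ± 0.43 on the log2 scale, adjusted p = 0.00627). Map2k3, which activates p38, was higher in TFH than naïve CD4 T cells (1.35 ± 0.18, adjusted p = 0.00444) and in TFR than in Treg cells (1.43 ± 0.18, adjusted p = 0.00527). Map3k5 was higher in both comparisons too (0.86 ± 0.20 and 0.73 ± 0.20, adjusted p = 0.0213 and 0.0395). Mapk11 was lower in both (-0.79 ± 0.09 and -0.61 ± 0.09, adjusted p = 0.0023 and 0.00687).

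Of 10 kinases that are activated by MAP kinases, 9 were tested. Relative to naïve CD4 T cells, 2 were called higher and 3 lower in TFH cells, against 46.7% of all genes called. In TFR versus Treg cells 1 was higher and 2 were lower, against 39.8% of all genes. Rps6ka3, which encodes RSK2, a kinase activated by ERK, fell to 615 and 1061 RU in TFH and 599 and 872 RU in TFR, from 2319 and 3062 RU in naïve CD4 T and 1892 and 2240 RU in Treg cells. It was lower by -1.72 ± 0.15 and -1.51 ± 0.15 (adjusted p = 0.00119 and 0.00281).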
